A study of Mus musculus with 22 samples.

Results

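Cortical neural stem cells (NSCs) of E13.5 mouse embryos carrying a doxycycline (Dox)-inducible Msi1 were profiled by mRNA sequencing with and without induction. The libraries were chosen by their labels and not by any measured value, and they number 4 of the 22 of the series. They are tetO-Msi1 cells with Dox (1 library), tetO-Msi1 cells without Dox (2 technical replicates, whose reads were summed) and KH2 cells without Dox (1 library). In tetO-Msi1 mice an Msi1 cDNA sits in the Col1a1 locus and is driven by the m2rtTA activator knocked into Rosa26 (R26-m2rtTA). KH2 mice carry R26-m2rtTA without an added Msi1 or Msi2 cDNA, so the activator was present in every library compared. All 4 samples carry the 72 h time point, and the induced cells received Dox at 1 ug/ml. The cells were grown as adherent cultures with EGF and bFGF, and the labels do not say how many embryos a culture came from. Which mRNAs differ once Msi1 is induced is the question of the comparison. Libraries of E12.5 cells from 3 lines (KH2, tetO-Msi1 and a line with inducible Msi2), 1 with and 1 without Dox each, are given beside it where they bear on a value, because KH2 cells with Dox are among the samples used here at that stage alone.

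Msi1 and Msi2 encode Musashi proteins, RNA-binding proteins of neural and other stem cells that recognize short UAG-containing sequences, mostly in the 3′ ends of mRNAs, and are best known for controlling translation. The classical account of Musashi in the nervous system is repression of Numb, an inhibitor of Notch signaling, which itself keeps NSCs from differentiating. The stress factor ATF4, which appears below, is made when amino acids run short or unfolded proteins build up, and it turns on genes for amino acid synthesis, uptake and tRNA charging.

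Total counts were 50388807 in the induced library, 18956807 and 41834798 in the untreated technical replicates and 27973879 in KH2, and ranged from 7889966 to 22248145 in the E12.5 libraries. Levels below are scaled RPKM, that is RPKM (reads per kilobase of counted sequence, per library size) with the sizes rescaled by the median ratio of genes over the E13.5 groups. E12.5 levels were scaled among themselves, so levels of the stages are not on 1 scale. With 1 library a condition, each change is a log2 ratio, Dox minus untreated, with a 95% interval that covers counting error only and not the spread between cultures. A gene was measured when it had at least 50 reads over the pair and a mean scaled RPKM of at least 1, which held for 10690 of 22623 genes. The technical replicates differed at least 2-fold in 3 of 10622 genes (0.0282%). Untreated tetO-Msi1 and KH2 cells differed that much in 130 of 10677 (1.22%), and the SD of log2 differences was 0.35 between these untreated lines against 0.36 between induced and untreated tetO-Msi1 cells. The change with Dox also followed the GC content of the transcript, with a Spearman rho of 0.43 across 10336 genes, which are not independent replicates. The part of GC content in the results was not tested beyond this. The rho was 0.03 against KH2, -0.42 for untreated tetO-Msi1 minus KH2 and -0.05 between the technical replicates. Values with the GC trend subtracted, an alternative chosen after seeing the data, are therefore given for several of the gene lists. Comparisons with untreated tetO-Msi1 and with KH2 share the induced library.

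The cells carried NSC markers in every library. In bulk RNA, fewer cells of a type and less RNA per cell cannot be told apart. Nes, Sox2 and Fabp7 stood at 97.9, 311 and 2520 scaled RPKM with Dox, at 109, 270 and 2864 in untreated tetO-Msi1 cells and at 86.5, 358 and 2071 in KH2. Markers of blood and vessel were near the floor, and those of mesenchyme less uniformly so. Aif1, Cx3cr1 and Cdh5 had 0 reads in all 4 libraries, and 14 of 15 microglia and blood genes and 13 of 15 endothelium and pericyte genes were under 1 scaled RPKM in each E13.5 group. Of 17 meninges and fibroblast genes, 12 were. Their summed level was 58.0 with Dox, 61.4 in untreated tetO-Msi1 cells and 70.3 in KH2. Col1a1, the locus that holds the transgene, was at 0.0814 with Dox, 0.148 without and 0.334 in KH2. The Y-linked genes Ddx3y, Eif2s3y, Kdm5d and Uty had 0 reads in every E13.5 library. In the E12.5 tetO-Msi1 cells with Dox they had 802, 773, 1279 and 123 reads. The compared E13.5 libraries thus did not differ in Y-linked mRNA, while the tetO-Msi1 libraries of the stages did.

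Msi1 (ENSMUSG00000054256, protein-coding, chromosome 5 of NCBIM37, 115879608 to 115905707) stood at 52.6 and 55.0 scaled RPKM in the untreated technical replicates, 62.9 in KH2 and 208 with Dox. The induced library lay far above all 3 untreated ones. The change was 3.83-fold, or 1.94 on the log2 scale (interval 1.89 to 1.98). The count covers 529 nt of Msi1, and reads from the transgene and from the endogenous gene cannot be told apart in it. At E12.5 the same induction gave 19.8 without and 108 with Dox, a log2 change of 2.45 (interval 2.36 to 2.54), while the log2 change in KH2 cells given Dox was -0.01.

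Msi2 (ENSMUSG00000069769, chromosome 11 of NCBIM37, 88152884 to 88579827), the paralog that was not induced, was lower in the induced cells. It stood at 58.8 and 59.3 scaled RPKM in the untreated technical replicates, 47.9 in KH2 and 25.4 with Dox. The induced library was the lowest of the 4, with a log2 change of -1.22 (interval -1.37 to -1.07). The direction was the same at E12.5, where Msi2 went from 31.7 (486 reads) to 19.9 (118 reads) in tetO-Msi1 cells, a log2 change of -0.67 (interval -0.96 to -0.38), against 0.12 (interval -0.10 to 0.33) in KH2 cells given Dox. Only 112 nt of Msi2 were counted, and edgeR's test of the induced library against both untreated lines did not call it (adjusted p = 0.184). In tetO-Msi2 cells of E12.5 the reverse induction left Msi1 at a log2 change of 0.21.

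Of the 10690 genes measured, 66 (0.617%) were at least 2-fold higher and 95 (0.889%) at least 2-fold lower with Dox, with a median over all genes of -0.01 on the log2 scale. With RPKM as deposited, which moves the median to 0.09, the split was 107 higher and 65 lower. At 1.5-fold, the limit used below to count members of gene lists, 508 genes (4.75%) were higher and 507 (4.74%) lower. The induced library was at least 2-fold above both untreated lines for 40 genes (0.374%) and at least 2-fold below both for 61 (0.571%). Without Dox, 50 of the 66 higher genes and 43 of the 95 lower ones were under 5 scaled RPKM. The median untreated level was 1.73 for the higher and 6.82 for the lower genes against 14.5 for all. That level is the denominator of the ratio that called the genes, which by itself favors low values in the higher ones and high values in the lower ones. Of the 66, 15 were under 1 without Dox and met the level minimum only through the induced library. Median transcript GC content was 55.0% in the higher genes, 47.6% in the lower genes and 50.3% in all. Of the 161 genes, 26 belong to any of the 37 gene lists described below.

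**Figure D1:**
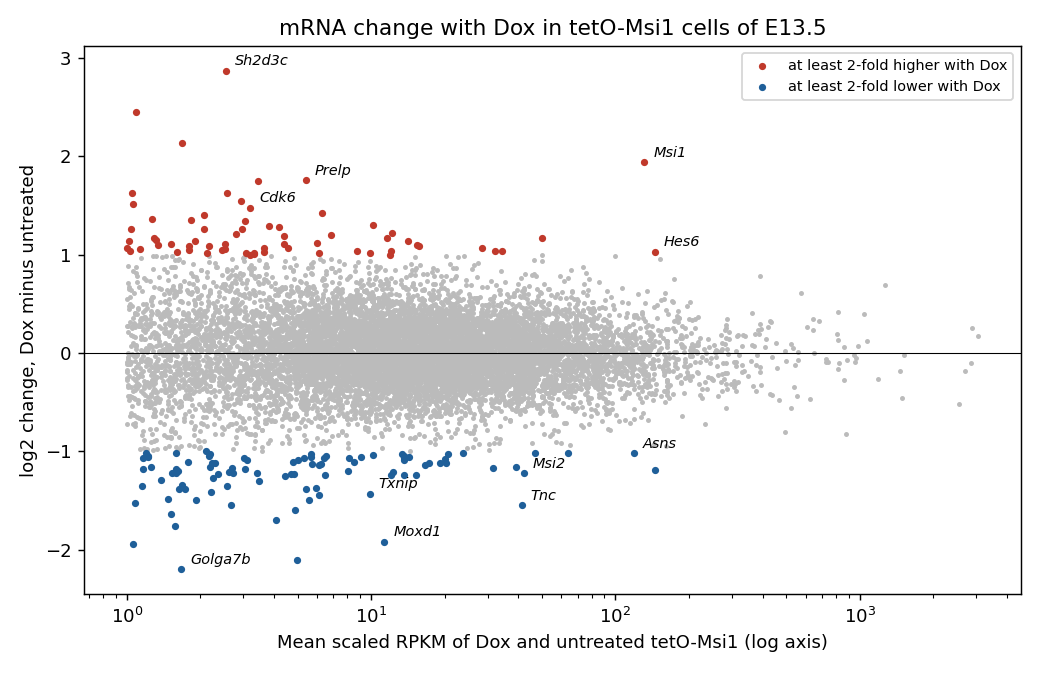
Log2 change with Dox (y axis) against the mean scaled RPKM of induced and untreated tetO-Msi1 cells (x axis, log scale) for the 10690 measured genes, each gene a point, with the 66 genes at least 2-fold higher in red and the 95 at least 2-fold lower in blue. Msi1 lies far to the upper right, near 2 on the y axis, and 50 of the 66 higher genes were under 5 scaled RPKM without Dox.

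The genes with the largest higher values, beside Msi1, encode an adaptor, a matrix protein and several enzymes. Sh2d3c (ENSMUSG00000059013, chromosome 2 of NCBIM37, 32576575 to 32611032), an SH2 domain adaptor of cell adhesion and migration signaling, was at 0.566 and 0.627 in the untreated technical replicates, 0.468 in KH2 and 4.47 with Dox, a log2 change of 2.87 (interval 2.48 to 3.25) on 379 reads with and 62 without Dox. Prelp, a small leucine-rich proteoglycan of the extracellular matrix, was at 2.27 and 2.55, 1.13 in KH2 and 8.33 with Dox (log2 change 1.76). In both the induced library was the highest of the 4. The untreated libraries were close to each other for Sh2d3c, while Prelp differed between the untreated lines. Cdk6, a kinase partner of D-type cyclins, was at 1.45 and 1.80, 2.25 in KH2 and 4.72 with Dox (log2 change 1.48). The phosphatases Dusp28 (1.63) and Dusp26 (1.35), the sugar transporter Slc2a10 (1.63), the phosphorylase kinase subunit Phkg1 (1.55), the actin-associated Synpo2l (1.52), Fam71f2 (1.40) and the ectonucleotidase Enpp1 (1.36) were the others described. These 11 genes, Msi1 included, were above both untreated lines, with log2 differences from KH2 of 0.89 (Dusp28) to 3.22 (Sh2d3c). Annotated exons of Sh2d3c, Prelp, Cdk6, Phkg1 and Dusp28 overlap a gene on the other strand, and whether the counting used strand is not given in the sources used here.

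Tnc (ENSMUSG00000028364, chromosome 4 of NCBIM37, 63620819 to 63681760), the matrix glycoprotein tenascin-C made by radial glia, was by far the most abundant of the 12 with the largest lower values. It stood at 62.4 and 61.4 scaled RPKM in the untreated technical replicates, 85.6 in KH2 and 21.1 with Dox, a log2 change of -1.55 (interval -1.59 to -1.51). Moxd1 (ENSMUSG00000020000, chromosome 10 of NCBIM37, 23943323 to 24022596), a monooxygenase related to dopamine beta-hydroxylase, was at 17.8 and 17.9, 23.0 in KH2 and 4.72 with Dox (log2 change -1.92, interval -2.01 to -1.82). For both, the untreated libraries were close together and the induced library lay apart below them. The desmosomal cadherin Dsc2 (-1.53), the receptor Calcrl (-1.49), the ectoenzyme Enpp3 (-1.64), the synaptic vesicle fusion protein Snap25 (-1.55) and the secreted 1500015O10Rik product (-1.44) were also lower. So were Golga7b (-2.20), the calcium-dependent phospholipid-binding Cpne8 (-2.10), the stress-induced transcription factor Atf3 (-1.76) and the reductase Cyb5r2 (-1.60). Cpne8 and Golga7b each rest on 33 reads with Dox. Exons of Tnc and Cyb5r2 overlap those of a gene on the other strand.

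Arrdc4 and Txnip, alpha-arrestins that limit glucose uptake and whose genes are turned on by the glucose-sensing MondoA factor, were lower together. Arrdc4 was at 6.29 and 6.25 scaled RPKM in the untreated technical replicates, 7.83 in KH2 and 1.93 with Dox (log2 change -1.70). Txnip was at 14.5 and 14.3 in the untreated technical replicates and 5.33 with Dox (log2 change -1.43, and -1.34 against KH2). Both induced values were under all 3 untreated ones. Exons of Txnip overlap those of a gene on the other strand. At E12.5 the log2 changes were -0.96 and -1.04 in tetO-Msi1 cells, and -0.32 and -0.43 in KH2 cells given Dox alone. Lower values with Dox were thus also seen at that stage in cells without a transgene.

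**Figure D2:**
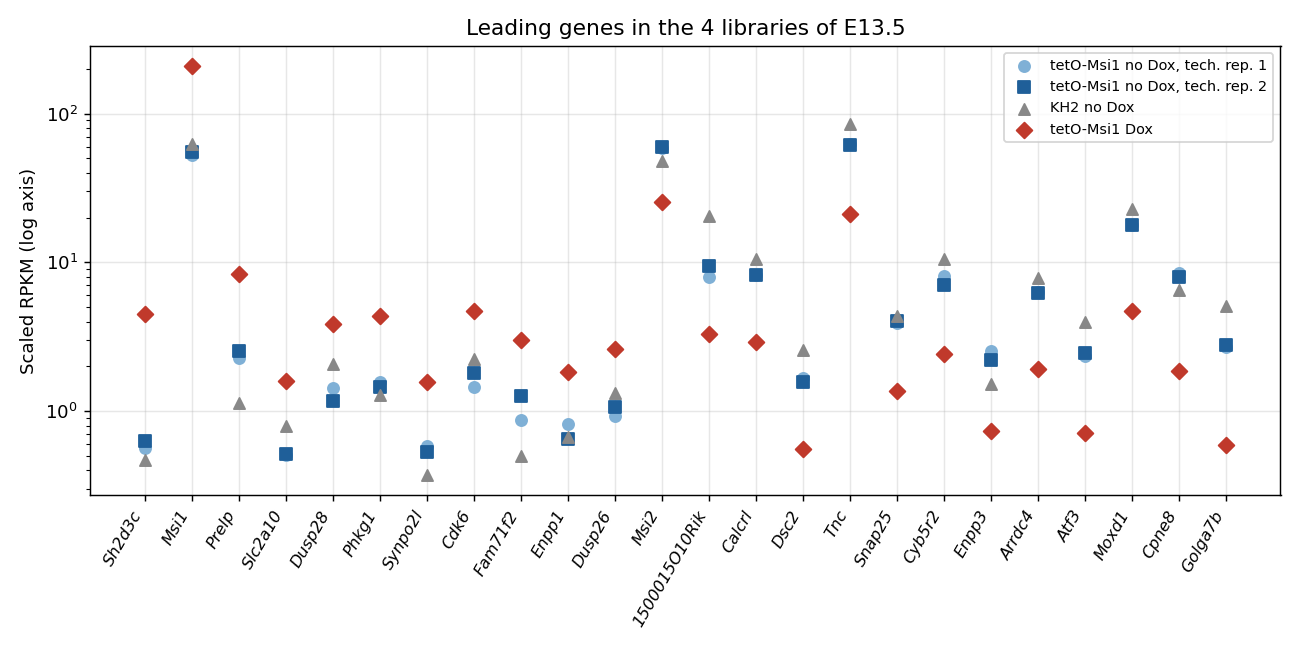
Scaled RPKM (y axis, log scale) in each of the 4 libraries of E13.5 for 11 genes with the largest higher and 12 with the largest lower log2 changes among those with at least 200 reads, and for Msi2 (x axis, ordered by change). The red diamond (Dox) lies above every untreated library from Sh2d3c to Dusp26 and below every one from Msi2 to Golga7b.

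A test was possible only by taking the untreated lines as repeats of each other, 1 induced library against 2 untreated ones. With edgeR's quasi-likelihood test over 13432 genes, Msi1 rose (log2 1.82, adjusted p = 0.0236), Sh2d3c rose (log2 3.02, adjusted p = 0.0305) and Moxd1 fell (adjusted p = 0.0295, edgeR). These were the 2 higher (0.0149%) and 1 lower (0.00744%) genes past an adjusted p of 0.05, and 1414 genes had an unadjusted p under 0.05. Tnc came next among the genes described (adjusted p = 0.0696, edgeR). The count depended on the processing: without untreated technical replicate 1 no gene passed (1336 at an unadjusted p under 0.05), and without technical replicate 2 it was 90 higher and 119 lower. The lone induced library was assumed to vary as the untreated lines do, and the fit has 1 residual degree of freedom.

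ATF4 and amino acid stress genes were lower in the induced cells, and their list had the lowest median of the 37. Of its 40 measured genes (41 listed), 21 were at least 1.5-fold lower with Dox and 0 higher, against 4.74% and 4.75% of all genes, and the median log2 change was -0.62 (-0.58 with the GC trend subtracted). Chac1, a glutathione-degrading enzyme, was at 43.0 and 43.9 scaled RPKM in the untreated technical replicates, 76.2 in KH2 and 19.4 with Dox (log2 change -1.17, interval -1.25 to -1.09). Asns, which makes asparagine, was at 160 and 158, 212 in KH2 and 78.4 with Dox (log2 change -1.02, interval -1.04 to -0.99). The order KH2, untreated tetO-Msi1, induced tetO-Msi1 was thus the same for these genes. The pseudokinase Trib3 (log2 change -1.24), the arginine and lysine transporter Slc7a1 (-1.16) and the mitochondrial enzyme Pck2 (-1.02) were the other members at least 2-fold lower.

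By role, all 9 tRNA synthetases of the list were lower with Dox, from -0.28 (Wars) to -0.95 (Sars), 6 of them by at least 1.5-fold. The 6 amino acid transporters ranged from -0.20 (Slc7a5) to -1.16 (Slc7a1), and the 6 serine and one-carbon enzymes from -0.17 (Phgdh) to -0.73 (Mthfd2). Of 6 transcription factors, Atf4 itself was the lowest (-0.64) and Atf5 (0.22) was higher. Against KH2 the median of the list was -0.93, beside -0.01 over all genes. The summed level of the list was 2659 with Dox, 3714 without and 4986 in KH2. The untreated lines also differed from each other in these genes, with a median of -0.45 for untreated tetO-Msi1 minus KH2, so the spread between lines was not far below the change with Dox. These roles and the genes named for them were picked after their values were seen.

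A promoter sequence tied to ATF4 was looked for in the list. ATF4 with a C/EBP partner binds composite sites with the core TGATGNAA, which was searched on both strands (TTNCATCA on the other) from 250 bases before to 50 after the RefSeq transcription start, in GRCm38.p6. The core was found in 3.97% of all 32851 promoters and in 12 of the 34 promoters matched for the list. Among the members at least 1.5-fold lower it was in 9 of 16, and among the other measured members in 2 of 17. The list was drawn up as ATF4 genes, so a share above that of all promoters was partly set in advance. The members were split by the same E13.5 changes described above, and the difference between these shares was not tested. A match is a description of the sequence and not of a bound site. The windows of the 4 members that were at least 2-fold lower and hold the core are shown with that of Atf3, itself a target of ATF4, with the core in capitals and the gene's strand 5′ to 3′ as written.
Chac1 (chr2:119351033-119351072, plus strand): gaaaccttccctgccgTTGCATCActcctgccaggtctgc
Trib3 (chr2:152344023-152344062, minus strand): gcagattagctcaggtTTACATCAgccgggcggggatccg
Asns (chr6:7693209-7693248, minus strand): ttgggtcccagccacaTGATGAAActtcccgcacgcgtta
Pck2 (chr14:55540147-55540186, plus strand): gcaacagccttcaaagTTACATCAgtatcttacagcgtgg
Atf3 (chr1:191183420-191183459, minus strand): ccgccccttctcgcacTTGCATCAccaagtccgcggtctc

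At E12.5 the same list did not differ in this way. Of 33 members measured there in tetO-Msi1 cells, 0 were at least 1.5-fold lower and 3 higher with Dox, with a median of 0.12, and the medians were 0.04 in KH2 and 0.26 in tetO-Msi2 cells. Asns was at 9.10 scaled RPKM without and 12.7 with Dox at E12.5, on a scale set separately from that of E13.5. Chac1 (0.394 and 0.678), Slc7a1 (0.844 and 0.897) and Trib3 (0.116 and 0.128) were under the level minimum at E12.5. These genes, at least 2-fold lower at E13.5, are thus not among the 33. The difference between the stages was not tested.

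**Figure D3:**
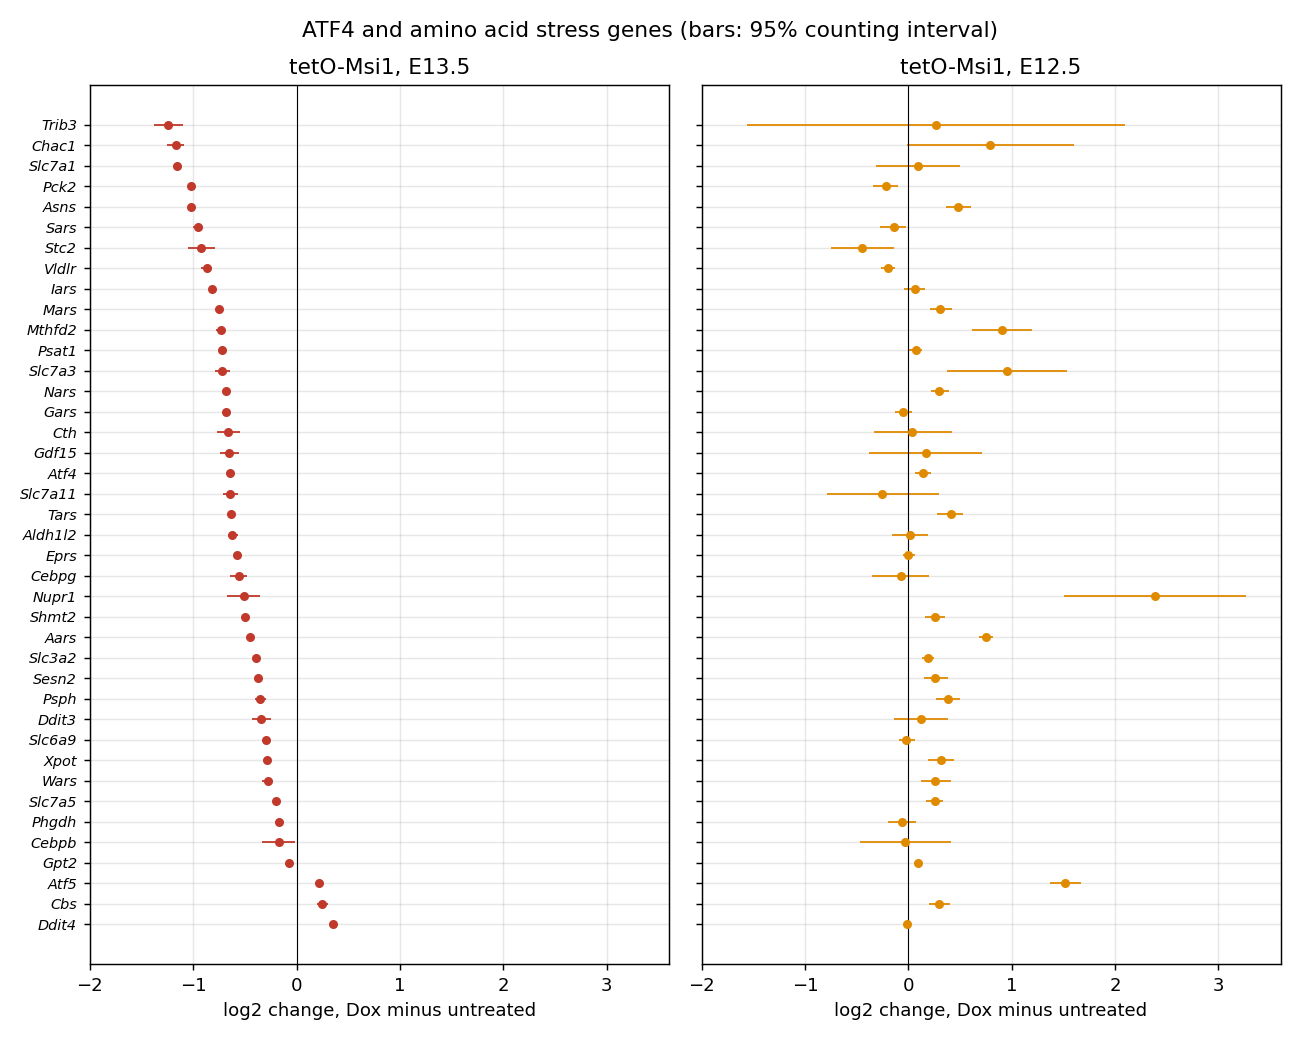
Log2 change with Dox (x axis) of the 40 measured ATF4 and amino acid stress genes (y axis, ordered by the E13.5 change) in tetO-Msi1 cells of E13.5 (left) and E12.5 (right), with 95% counting intervals as bars. At E13.5 all but Atf5, Cbs and Ddit4 lie below 0, whereas at E12.5 most lie near or above it. At E12.5, 33 members of the list were measured, so the right panel also shows genes under the minimum there.

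Notch pathway genes were higher or near their untreated level. Of the 21 measured Notch targets and regulators (25 listed), 6 were at least 1.5-fold higher and 0 lower with Dox, with a median of 0.25 (0.16 and 4 higher with the GC trend subtracted). Hes6, a bHLH factor of early neurogenesis, was at 100 and 93.3 scaled RPKM in the untreated technical replicates, 109 in KH2 and 195 with Dox. Its log2 change was 1.03 (interval 0.99 to 1.06), and 0.79 with the GC trend subtracted. The ubiquitin ligase Neurl1a, a regulator of Notch ligands, was at 0.474 and 0.708, 0.976 in KH2 and 1.40 with Dox (log2 change 1.14). Both were highest in the induced library, Neurl1a at a low level. The direct Notch targets Hes1 (-0.25) and Hes5 (0.25) were within 1.5-fold of their untreated level and were named after their values were seen. Numb, the classical Musashi target, was at 6.88 and 6.50 without Dox, 5.72 in KH2 and 6.31 with Dox, a log2 change of -0.07 (interval -0.16 to 0.03). None of the 7 measured ligands and receptors passed 1.5-fold, and Jag1 had a log2 change of -0.06 (interval -0.15 to 0.04). The paper reports repression of Jag1 in translation, with its mRNA little changed. For Numb it found no change in translation, at low coverage. The mRNA levels given here do not measure translation. At E12.5 the median of the targets and regulators was 0.04, with 0 of 21 past 1.5-fold either way.

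Matrix, adhesion and channel genes at least 1.5-fold different were mostly lower. Of 34 measured collagens, laminins and matrix genes (59 listed), 8 were at least 1.5-fold lower and 2 higher, with a median of -0.20 (-0.27 with the GC trend subtracted). Beside Tnc, the fibrillar collagen Col5a1 (log2 change -1.11), the microfibril protein Fbn1 (-1.07) and the elastic fiber protein Fbln5 (-1.07) were at least 2-fold lower. Fbn1 was at 6.90 and 7.30 scaled RPKM in the untreated technical replicates, 7.28 in KH2 and 3.42 with Dox. The 3 untreated values were close together and the induced one lay apart below them. The members with higher values were Col9a2 (0.94) and the basement membrane chain Col4a2 (0.64). Against KH2 their log2 differences were 1.78 and 0.23. At E12.5, 9 of 29 matrix genes were at least 1.5-fold lower and 0 higher in tetO-Msi1 cells, with a median of -0.39, against 0 of 30 and -0.01 in KH2 cells given Dox.

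Of 40 measured cadherins, contactins and other adhesion genes (66 listed), 5 were lower and 1 higher. Cntn1, a contactin of axons and oligodendrocyte precursors, was at 18.8 and 18.3 in the untreated technical replicates and 8.89 with Dox (log2 change -1.05, and -1.17 against KH2), and Lrrn3 (-1.06) and Cntn6 (-1.02) were also at least 2-fold lower. Of 42 measured ion channels and transmitter receptors (93 listed), 12 were at least 1.5-fold lower and 4 higher, with a median of -0.02. The NMDA receptor subunit Grin3a was at 8.20 and 8.87, 10.8 in KH2 and 4.14 with Dox (log2 change -1.07), and the potassium channel Kcnk10 had a log2 change of -1.12. The nicotinic receptor subunit Chrna4, at 13.3 and 13.7, 12.9 in KH2 and 27.0 with Dox (log2 change 0.99), led the higher ones. The list thus split into both directions. Axon guidance genes were also split, with 6 of 40 higher, led by Efna3 (0.87) and Efnb3 (0.71), and 4 lower, led by Epha5 (-0.82) and Nrp2 (-0.72). With the GC trend subtracted the counts were 1 higher and 3 lower, and against KH2 4 higher and 6 lower, so the balance of directions turned with the processing and the untreated line used.

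Of 27 measured glycolysis and hypoxia genes (38 listed), 8 were at least 1.5-fold lower and 1 higher, with a median of -0.21 (-0.31 with the GC trend subtracted). Txnip and the mitophagy receptor Bnip3 (log2 change -0.97, and -0.57 against KH2) led the lower members. The glucose transporter Slc2a1 was at 10.9 and 11.2, 12.4 in KH2 and 20.7 with Dox (log2 change 0.90), the reverse of Txnip. Cholesterol and fatty acid synthesis genes had a median of -0.25, with 5 of 32 lower and 0 higher, led by the sterol reductase Tm7sf2 (-0.93) and acetyl-CoA synthetase Acss2 (-0.72). Against KH2 the median of this list was -0.02, with 3 lower and 2 higher, so its difference depended on the untreated line used. At E12.5 the median was -0.30 in tetO-Msi1 cells and -0.06 in KH2 cells given Dox. Cytosolic ribosomal protein genes had a median of -0.31 (-0.43 against KH2), with 3 of 42 at least 1.5-fold lower. Rpl13a (-0.83) and Rpl37a (-0.79), the leading members, rest on 47 and 29 reads with Dox, and reads of these genes can be shared with near-identical pseudogenes. Nuclear respiratory chain genes had a median of -0.13 with 1 of 68 past 1.5-fold, Ndufv2 (-0.61). Of 7 measured mitochondrially encoded genes only mt-Nd6 passed, at -0.82 against untreated tetO-Msi1 and 0.08 against KH2, and its exons overlap those of mt-Nd5 on the other strand.

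Replication and G1/S genes differed about as often as genes at large. Of 41, 2 were at least 1.5-fold higher and 2 lower (4.88% each), against 4.75% and 4.74% of all genes. Cdk6 and the D-type cyclin Ccnd2 were the higher ones. Ccnd2 was at 106 and 102 scaled RPKM, 148 in KH2 and 201 with Dox (log2 change 0.96). The DNA synthesis genes Tyms (-0.90) and Rfc4 (-0.64) were the lower ones. The mitosis and G2/M list had a median of -0.22, with 3 of 41 (7.32%) lower, led by the condensin subunit Ncapg (-0.71) and the kinetochore motor Cenpe (-0.68). Its median was 0.08 against KH2 and -0.09 with the GC trend subtracted, so the direction of the mitotic difference turned with the untreated line used. Of 23 p53 targets, 3 were higher and 0 lower, with a median of 0.21, led by the nuclease Aen (0.84) and the receptor Eda2r (0.70).

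Cell type markers differed in single genes. Of 18 neural stem and radial glia genes, only Tnc and Hopx (log2 change -0.82, on 42 reads with Dox) passed 1.5-fold. Of 12 measured neuronal genes (30 listed), 4 were lower and 0 higher, among them Snap25 and the microtubule regulator Stmn3 (-0.99), while the neuronal markers Dcx (0.14) and Tubb3 (0.03) were near their untreated level. The astrocyte filament gene Gfap was at 28.2 and 27.5, 18.0 in KH2 and 12.8 with Dox (log2 change -1.12). The lipoprotein gene Apoe was at 977 and 969, 866 in KH2 and 1563 with Dox (log2 change 0.69, and 0.47 with the GC trend subtracted). These astrocyte genes moved in opposite directions, and the list of 17 had a median of 0.16. In the oligodendrocyte lineage, Lhfpl3 (-1.12), the growth factor receptor Pdgfra (-0.66) and Ugt8a (-0.66) were lower. Ugt8a had a log2 difference of -0.10 (interval -0.29 to 0.09) against KH2. The transcription factor Olig1 was higher, at 472 and 450, 596 in KH2 and 696 with Dox (0.61). With the GC trend subtracted Olig1 was at 0.36, and 0 members of that list were at least 1.5-fold higher and 3 lower. The summed level of the markers was 126 with Dox, 162 without and 179 in KH2 for the 26 neuronal genes in the files, of which 14 were under 1 in every group and Cntn2, Dlx5, Neurod6 and Neurog1 had no reads. It was 4634, 3697 and 3857 for 19 astrocyte genes and 1164, 881 and 1074 for 15 oligodendrocyte lineage genes. Most of the difference between induced and untreated tetO-Msi1 cells in these sums came from Apoe and from Olig1, whose levels are given above. Of the measured members, 9 of 17 astrocyte genes and 6 of 14 oligodendrocyte lineage genes were above 0 in log2 change, and the medians against KH2 were -0.06 and -0.16. The part of these cell types in the other results was not tested. The 20 measured forebrain regional identity genes (45 listed) stayed within 1.5-fold, with a median of 0.27.

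Lists of signaling pathways had medians close to that of all genes. The EGF, FGF and MAPK feedback, BMP, TGF-beta and Id, and Wnt lists had medians of 0.09, 0.08 and 0.06, with 2 of 23, 1 of 23 and 3 of 29 genes higher and 0, 0 and 1 lower. Fgf11, an intracellular FGF family member, was at 6.36 and 8.65, 7.40 in KH2 and 16.3 with Dox (log2 change 1.04). The BMP antagonist Chrd (0.91), the MAPK phosphatase Dusp4 (0.64), and the Wnt receptor Fzd5 (0.80) and ligand Wnt4 (0.69) were the other leading members, with Apcdd1 (-0.64) the lower Wnt gene. Wnt4 was at 8.10 with Dox, 5.03 in untreated tetO-Msi1 cells and 8.96 in KH2, and was thus not above the other untreated line (log2 -0.15, interval -0.28 to -0.01). Hhip, the decoy receptor and target of Hedgehog, was the 1 of 8 Shh genes past 1.5-fold, at 3.11 and 3.02, 4.72 in KH2 and 1.36 with Dox (-1.16). Of 18 immediate early genes, Egr1 (0.70) and Ier3 (0.64) were higher, and Atf3 and Klf4 (-0.92) led the 3 lower. Of 18 interferon response genes 4 were lower, led by Gbp2 (-0.89) and Ifitm3 (-0.78). Of 23 ER chaperones Sdf2l1 (0.60) and of 12 heat shock genes Cryab (0.80) alone passed 1.5-fold, both higher. Against KH2, Egr1 (log2 0.14), Ier3 (0.31), Dusp4 (0.29), Gbp2 (-0.29), Sdf2l1 (0.34), Cryab (0.42) and Apcdd1 (-0.57) were within 1.5-fold. Fgf11 (1.13), Chrd (0.69), Fzd5 (0.78), Hhip (-1.79), Atf3 (-2.47), Klf4 (-1.63) and Ifitm3 (-1.48) stayed past it in the same direction.

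Of 38 measured RNA-binding regulators (55 listed), 4 were at least 1.5-fold higher and 2 lower. Zfp36l2, which promotes decay of AU-rich mRNAs, was at 35.5 and 33.7, 46.1 in KH2 and 65.9 with Dox (log2 change 0.94), and Celf5 was at 0.75. Rbms1 (-0.99) and Rbms3 (-0.92) were lower on 44 and 51 reads with Dox. Of 18 mesenchymal and EMT genes, Col5a1 and Col5a2 (-0.74) were lower and 0 were higher, with Vim at -0.18 and Fn1 at 0.17. Further list members past 1.5-fold were Jup (0.86), 1 of 3 measured epithelial genes, and Cdh24 (0.94) of the cadherins. Egfl7 (0.67), 1 of 2 measured endothelial genes, and Pdk2 (0.61), 1 of 4 measured neighbors of the transgene locus, also passed. These genes were higher than in untreated tetO-Msi1 cells. Egfl7 had a log2 difference of -0.23 (interval -0.64 to 0.17) against KH2, so its direction turned with the untreated line. Against KH2, Pdk2 (0.38) was within 1.5-fold, and Jup (0.71) and Cdh24 (1.27) stayed past it. The study names Prpf3, Rbm22, Dhx37 and Kirrel3 for changed translation and Erbb2ip for changed splicing, which total mRNA levels do not measure. In mRNA, Prpf3 (0.00), Rbm22 (0.06), Dhx37 (0.13), Erbb2ip (-0.29) and Kirrel3 (-0.56) stayed within 1.5-fold at E13.5. Kirrel3 had a log2 difference of -1.15 against KH2, and -0.59 for untreated tetO-Msi1 minus KH2. At E12.5 the log2 change of Kirrel3 was -2.72 (interval -3.96 to -1.48), on 5 reads with and 93 without Dox over 220 counted nt. The X-linked Eif2s3x (-0.66), Kdm6a (-0.42), Ddx3x (-0.35) and Kdm5c (-0.09) had log2 differences from KH2 of -1.38 (Eif2s3x) to -0.18 (Kdm6a).

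**Figure D4:**
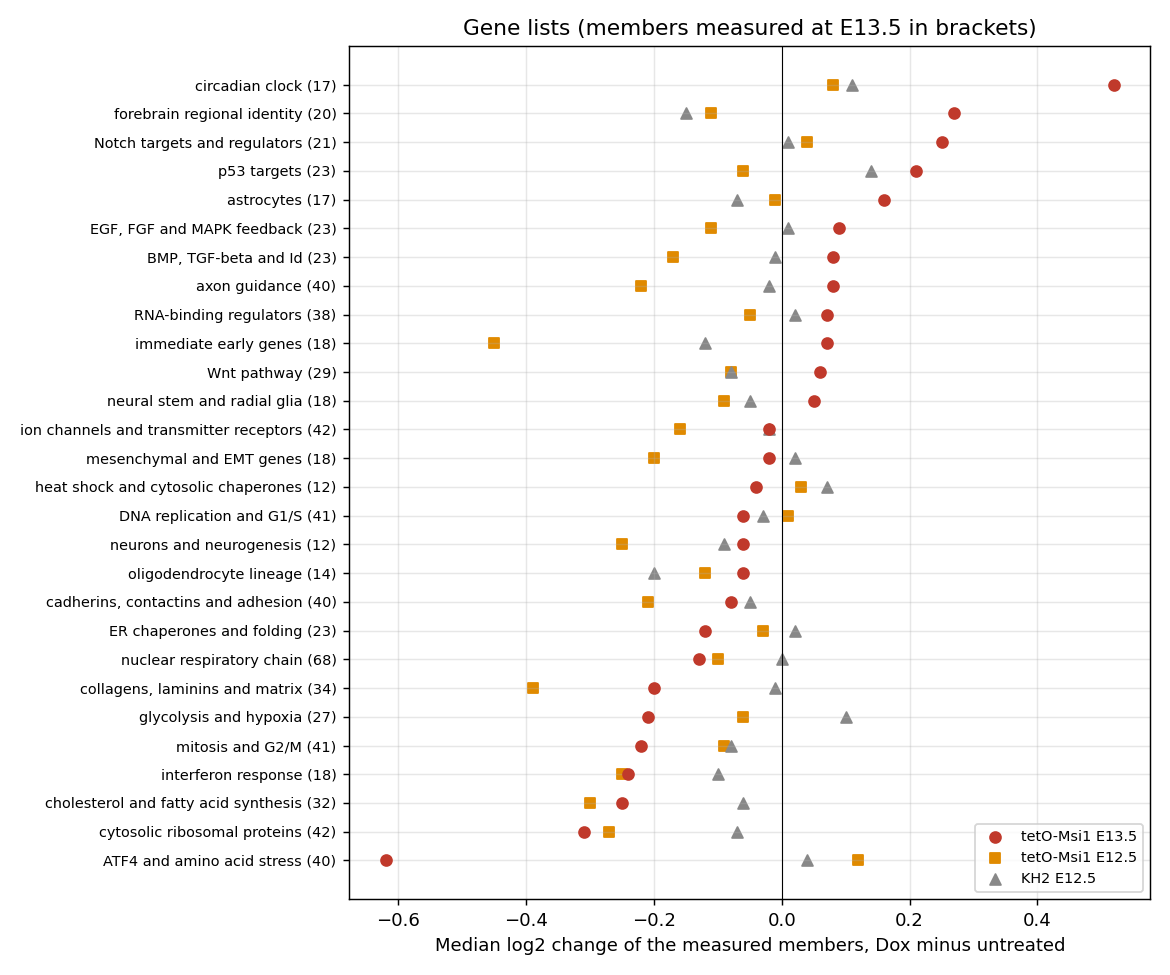
Median log2 change with Dox (x axis) of each gene list with at least 10 measured members (y axis, members measured at E13.5 in brackets), in tetO-Msi1 cells of E13.5 (red circles), tetO-Msi1 cells of E12.5 (orange squares) and KH2 cells of E12.5 (grey triangles). The ATF4 list lies apart at -0.62 at E13.5 and 0.12 at E12.5, while matrix, cholesterol and ribosomal protein genes lie below 0 at both stages.

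The genes called at E13.5 were then looked up in the E12.5 libraries, which share no sample with the E13.5 comparison. Of the 66 genes at least 2-fold higher, 43 were measured in tetO-Msi1 cells of E12.5, where 12 (27.9%) were at least 1.5-fold higher and 0 lower, against 2.50% and 2.37% of all genes. The 12 include Msi1, the gene induced at both stages. Of the 95 genes at least 2-fold lower, 57 were measured there, and 26 (45.6%) were at least 1.5-fold lower and 0 higher. No gene called at E13.5 was past 1.5-fold in the opposite direction in tetO-Msi1 cells of E12.5. In KH2 cells given Dox, 0 of 39 of the higher genes were higher and 3 of 62 of the lower genes were lower, against 0.717% and 0.637% of all genes. In tetO-Msi2 cells, 9 of 40 (22.5%) and 23 of 64 (35.9%) moved in the direction seen with Msi1, against 2.34% and 1.90%. Past 1.5-fold in the opposite direction were 0 of 40 higher and 3 of 64 lower genes in tetO-Msi2 cells, and 2 of 39 higher and 1 of 62 lower genes in KH2 cells. The opposite ones in tetO-Msi2 cells include Msi2, the gene induced there (log2 change 2.43). Each of these is a single pair of libraries.

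Msi1, Sh2d3c, Prelp, Phkg1 and Dusp28 were the named genes at least 2-fold higher at E13.5 and, where measured, at least 1.5-fold higher in tetO-Msi1 cells of E12.5. Named genes with smaller changes at E13.5, such as Apoe, are not counted here. Prelp had a log2 change of 1.79 at E12.5 (interval 1.43 to 2.14), Sh2d3c of 1.37 (interval 0.80 to 1.93) and Phkg1 of 1.23 (interval 0.91 to 1.56). Named genes lower at both stages by the same limits were Msi2, Tnc, Arrdc4, Txnip, Calcrl, Col5a1, Fbn1, Grin3a, Kcnk10 and 1500015O10Rik. Tnc changed by -0.80 (interval -0.88 to -0.73) in tetO-Msi1 cells of E12.5, by -0.78 in tetO-Msi2 cells and by -0.10 in KH2 cells given Dox. Tnc was thus lower with either Musashi gene induced. Moxd1, which fell at E13.5, was at 0.692 without and 0.567 with Dox in tetO-Msi1 cells of E12.5. That is under the level minimum, and its log2 change there (-0.28, interval -0.78 to 0.23) sets no direction.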

How the data were processed

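Poly(A)+ RNA of NSCs was sequenced as paired ends, 1 library per condition. The authors deposited raw counts of reads per gene (Ensembl IDs), the counted length and RPKM values. The RPKM equals the count over length and over a read number larger than the summed counts. The submitters' processing notes name Bowtie, TopHat and mm9, without versions. Counting and strand settings are not given in the sources used here. The RNA-Seq counts of 22623 genes were used, of which 20966 IDs matched a symbol. Coordinates are from the Ensembl annotation of NCBIM37, promoters from RefSeq GRCm38.p6. No column of per-sample values was left unmapped.

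Counts of the technical replicates were summed after comparison (chi-square per degree of freedom 1.70 over 10622 genes). Log2 ratios used reads plus 0.5 on median-ratio sizes. edgeR (4.0.16) in R (4.3.3) used TMM, its expression filter and Benjamini-Hochberg adjustment. In simulated counts of 13432 genes it called 49 of 100 genes changed 2-fold, 81 of 100 changed 4-fold and 6 unchanged ones. Alternatives were the deposited RPKM, TMM, other added values and filters, KH2 as control, each technical replicate left out, DESeq2 (1.42.0) and a GC correction in 20 bins.

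The members and gene lists were chosen with earlier results of these data known. Genes named are Msi1 and Msi2, the 12 largest differences each way among genes at least 2-fold different on at least 200 reads, list members at least 2-fold different or among the 2 leading each way past 1.5-fold, sex-linked genes, Col1a1 and genes the study names in NSCs, and others are said to be picked after their values were seen. A few genes that the rule names are not reported here. Ribo-Seq and knockout libraries were not used here.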

Additional observations from a re-analysis of the deposited data

Results flagged for a closer look

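The median log2 change of the ATF4 and amino acid stress genes with Dox was -0.62 at E13.5 (40 genes) and 0.12 at E12.5 (33 genes) in tetO-Msi1 cells, in opposite directions at the stages. The median of the forebrain regional identity genes was 0.27 at E13.5 (20 genes) and -0.11 at E12.5 (19 genes), and -0.15 in KH2 cells given Dox at E12.5. Each stage is a single pair of libraries, and neither difference between the stages was tested.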

How the results depend on the processing

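The 45 named genes at least 2-fold different kept their direction under every alternative that gave a value, and 32 (0.5 added to scaled RPKM) to 45 of them stayed past 2-fold. The counts moved with the processing. Genes at least 2-fold higher and lower, 66 and 95 as reported, were 107 higher with RPKM as deposited, 32 and 58 with 0.5 added to scaled RPKM, 21 and 45 at a mean scaled RPKM of at least 5, 184 and 209 with no RPKM minimum, and 199 and 210 with KH2 as the control. Genes at least 1.5-fold higher and lower, 508 and 507, were 779 and 322 with RPKM as deposited, 271 and 302 at the minimum of 5, 833 and 798 with none, and 816 and 866 with KH2 as the control. Leaving out a technical replicate gave 73 to 75 and 99 to 105 at 2-fold, 525 to 531 and 501 to 527 at 1.5-fold. In edgeR the 2 higher and 1 lower genes became 0 to 90 and 0 to 119 without a technical replicate, 168 and 217 with no filter on low counts, 45 and 103 with DESeq2, and 2 lower with RLE factors. The cause was not tested. Subtracting the GC trend left 47 and 78 genes at 2-fold, and the median of the mitosis and G2/M list moved from -0.22 to -0.09. No paired analysis was possible because the induced group has 1 library and its number marks no shared culture with the untreated ones.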

Other observations

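Circadian clock genes, a list chosen after values were seen, were higher in induced cells of E13.5. Of 17 measured, 7 were at least 1.5-fold higher and 1 lower, with a median log2 change of 0.52 (0.61 against KH2, 0.50 with the GC trend subtracted). The clock repressor Per3 was at 9.77 scaled RPKM in untreated tetO-Msi1 cells, 7.45 in KH2 and 21.0 with Dox (log2 change 1.10). The output factor Dbp was at 18.1 and 18.6, 19.7 in KH2 and 38.7 with Dox (1.07). Its counterpart Nfil3, which represses the genes that Dbp activates, was at 8.96 and 8.33, 10.6 in KH2 and 3.90 with Dox (-1.13), and the activator Arntl had a log2 change of -0.50. At E12.5 the median of the list was 0.08 in tetO-Msi1 cells and 0.11 in KH2 cells, with 3 of 17 genes at least 1.5-fold higher and 0 lower in tetO-Msi1 cells and 1 higher and 1 lower in KH2 cells. The hour at which each culture was harvested is not given in the sources used here.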
